A study of Mus musculus with 2 samples.

Results

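Arterial endothelial cells line the arteries and arterioles that carry blood into the brain. They were chosen here by their own messenger RNA, and 277 of the 36026 barcodes in the series met the rule. A member had at least 1000 unique molecular identifiers (UMIs, each counting 1 captured RNA molecule), 500 or more genes, and no more than 10% of UMIs from mitochondrial genes. Its UMIs of Cldn5, Pecam1, Flt1, Cdh5 and Ly6c1 summed to at least 5, those of the pericyte genes Rgs5 and Vtn to at most 2, Ptprc was at 0 and Plvap was under 3. The UMIs of 4 arterial genes, Gkn3, Bmx, Sema3g and Vegfc, summed to at least 2 and exceeded the sum of the venous genes Slc38a5, Vwf, Ackr1, Lcn2 and Nr2f2. Because the rule reads these values, the levels of its genes, and any gene compared between classes of endothelial cells that it splits, are given as description without a test.

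The cells came from whole brains of adult mice that carry, by the name of the allele, lacZ at Il34, the gene of interleukin-34, a cytokine that signals through the receptor CSF1R. Mural cells and fibroblasts (CD13+ and/or CD140a+ and O4-), endothelial cells (CD31+), astrocytes (ACSA-2+), border-associated macrophages and microglia (both by CD11b and F4/80) were sorted and run with the 10x Genomics 3′ v3.1 kit. Per the labels, there was 1 library from IL34LacZ/+ mice, here heterozygous, and 1 from IL34LacZ/LacZ mice, here homozygous. Both groups carry the lacZ allele, and no library without it was analysed here. How many animals gave each library, their sex and exact age, and which part of Il34 the allele removes are not stated there.

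In the brain, blood passes from arteries and arterioles through capillaries into venules and veins, and the endothelium changes along this path. Arterial identity is set in development by VEGF and Notch signalling, with the ligands DLL4 and JAG1, the transcription factors of the SOXF and HEY families and the membrane ligand ephrin-B2. Arterial endothelium faces pulsatile flow and rests on elastic fibres and smooth muscle, whereas capillary endothelium carries most of the nutrient exchange of the blood-brain barrier, the layer that separates blood from brain tissue.

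The heterozygous library held 147 members, 7.84% of its 1876 endothelial cells (exact Clopper-Pearson 95% interval 6.66 to 9.15), and the homozygous library 130, 7.08% of 1837 (5.95 to 8.35). The other endothelial cells were capillary (1142 and 1140 cells, both sums under 2), venous (442 and 462), fenestrated (145 and 98, Plvap at 3 or more) or tied between the arterial and venous sums (0 and 7). Members held 568209 and 504208 UMIs in all, with a median of 2640 and 2439 UMIs per cell, against 1805 and 1925.5 in capillary and 2982.5 and 3194.5 in venous cells. The libraries share 103 barcodes, none of them among the members of both. With 1 library per genotype no test between genotypes is possible, and every interval below covers counting error only.

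The label was checked on genes that the rule does not read. All 7 pan-endothelial genes outside the rule (Tek, Tie1, Kdr, Esam, Emcn, Egfl7 and Eng) were detected, with a summed level of 2927 CPM (UMIs of the genes per 1000000 UMIs of the class) in heterozygous and 2449 CPM in homozygous members, against 3279 and 2983 CPM in capillary cells. All 13 arterial genes outside the rule were detected too, at a summed 8859 and 9256 CPM, against 3603 and 4400 CPM in capillary and 5222 and 6145 CPM in venous cells. Genes of smooth muscle, which surrounds arteries, summed to 42.2 and 31.7 CPM with Cnn1 and Lmod1 at 0 in both libraries. Pericyte genes summed to 26.4 and 31.7 CPM with Kcnj8 at 0. Mgp made up 4173 and 5654 CPM of the arterial sums. Without it the 12 remaining genes summed to 4687 and 3602 CPM in members, against 1468 and 1302 CPM in capillary and 1179 and 1222 CPM in venous cells.

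The sum of arterial genes did not separate members from every cell that the rule left out. Endothelial cells whose marker sum was 2 or more but did not exceed the venous sum (17 and 26) stood at 10742 and 10537 CPM, of which Mgp gave 9740 and 8792. Without Mgp they stood at 1001 and 1745 CPM. Cells with a sum of 1 (81 and 90) stood at 2056 and 1892 CPM without Mgp, next to 2124 and 2526 CPM in members with a sum of 2. Leaving out Mgp was a choice made after the data were seen.

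Members carried RNA of other cells. Macrophage genes (8 of 8 detected) summed to 470 and 504 CPM, below the 1532 and 1538 CPM of capillary cells. Fibroblast genes summed to 537 and 1095 CPM, with Lum at 0 in heterozygous members. Choroid plexus genes summed to 36592 and 13350 CPM, against 37466 and 16249 CPM in capillary and 48550 and 37847 CPM in venous cells. In members nearly all of it was Ttr, the transthyretin gene, which made up 3.44% and 1.27% of their UMIs. Ttr was found in all 147 and 130 members. Erythrocyte genes summed to 5243 and 6117 CPM, with 72.5% and 48.4% of their UMIs in 1 cell of each library. Astrocyte genes summed to 352 and 188 CPM. Oligodendrocyte genes summed to 839 and 190 CPM, and 1 heterozygous cell held 85.7% of the UMIs in the first value. In 8 heterozygous and 15 homozygous members the 5 endothelial genes of the rule made up under 0.5% of the UMIs. These 23 cells were deep, with a median of 11877.5 and 10568 UMIs, and held 20.2% and 32.8% of the members' UMIs. The counts that follow are therefore also given over the 139 and 115 members with an endothelial share of 0.5% or more, called the filtered members, a choice made after the data were seen. This filter did not remove globin RNA. Hba-a1, a haemoglobin gene, had 453 and 807 UMIs in all members and 452 and 795 in filtered members.

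**Figure D1:**
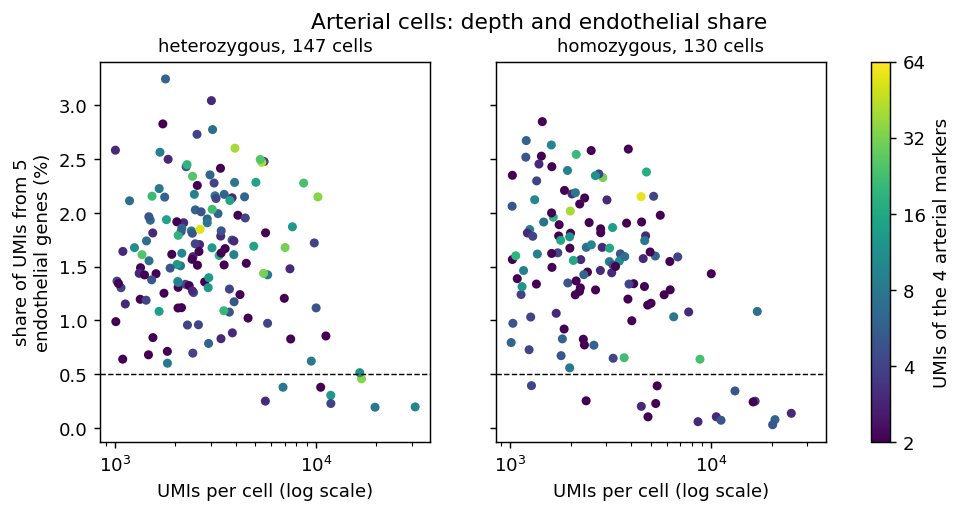
UMIs per cell (x axis, log scale) against the share of those UMIs from the 5 endothelial genes of the rule, in percent (y axis), for each member of the heterozygous and homozygous library. The 8 and 15 cells under the 0.5% line sit mostly at the deep end of the x axis, with medians of 11877.5 and 10568 UMIs.

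Of the 4 arterial markers, Gkn3, which encodes the secreted protein gastrokine 3, gave the most UMIs. Gkn3 (ENSMUSG00000030048, GRCm38.p6 chr6:87383256-87388935, minus strand) had 741 UMIs in heterozygous and 430 in homozygous members, or 1304 and 853 CPM, and was found in 67.3% and 47.7% of cells. Macrophage cells of the same libraries should lack it and were deeper (a median of 3379 and 3817 UMIs). They were chosen by macrophage genes and by the absence of UMIs from the rule's endothelial genes. In them the share with Gkn3 was 0.327% and 0.259%, and for the 3 other markers it lay between 0.123% and 0.813%. Cells with UMIs of those endothelial genes were thus left out beforehand, so low shares are partly built in. The shares cannot give the background in members. Sema3g (ENSMUSG00000021904, chr14:31217860-31230352, plus strand), a secreted semaphorin, stood at 308 and 345 CPM and was found in 59.9% and 65.4% of members. Vegfc (ENSMUSG00000031520, chr8:54077606-54187096, plus strand), a ligand of the VEGF family, stood at 266 and 135 CPM and was found in 53.1% and 35.4%. Bmx (ENSMUSG00000031377, chrX:164192842-164258193, minus strand), a non-receptor tyrosine kinase, stood at 180 and 224 CPM and was found in 38.1% and 43.1%. No single marker was found in all members.

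The summed marker count ran from 2 to 54 UMIs in heterozygous members, with a median of 5, and from 2 to 56 in homozygous members, with a median of 3. All 4 markers were seen together in 14 and 11 cells, and a single marker in 38 and 52. Gkn3 and Bmx were seen together in 40 and 33 cells, which is 40.4% and 53.2% of the cells with Gkn3 and 71.4% and 58.9% of those with Bmx. Just outside the threshold lay 81 and 90 endothelial cells with a sum of 1 that exceeded their venous sum. A further 17 and 26 cells had a sum of at least 2 that did not exceed it. Just inside, with a sum of exactly 2, lay 36 and 51 members.

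The 250 bases upstream of the annotated start are shown for 4 genes. Gkn3 and Bmx are from the rule, and Gper1 and Fbln5 from the 12 genes named by rank over capillary cells. They are shown because Notch target genes are read through the factor RBPJ, and capitals mark the core letters of its site, TGGGAA, or their reverse complement TTCCCA. The sequences are RefSeq's for GRCm38.p6 and run 5′ to 3′ on the strand of the gene. They lie at chr6:87388936-87389185 (minus), chrX:164258194-164258443 (minus), chr5:139422929-139423178 (plus) and, for the first of 2 listed starts of Fbln5, chr12:101819120-101819369 (minus).
Gkn3: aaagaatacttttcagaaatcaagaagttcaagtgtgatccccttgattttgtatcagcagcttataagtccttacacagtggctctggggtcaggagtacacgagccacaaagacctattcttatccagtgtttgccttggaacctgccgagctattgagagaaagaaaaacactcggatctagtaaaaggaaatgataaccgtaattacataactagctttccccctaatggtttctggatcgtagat
Bmx: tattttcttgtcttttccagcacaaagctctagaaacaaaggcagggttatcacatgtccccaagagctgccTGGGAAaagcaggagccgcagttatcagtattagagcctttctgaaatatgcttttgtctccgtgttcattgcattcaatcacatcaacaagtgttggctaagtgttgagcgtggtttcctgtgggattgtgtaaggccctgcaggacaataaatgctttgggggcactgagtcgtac
Gper1: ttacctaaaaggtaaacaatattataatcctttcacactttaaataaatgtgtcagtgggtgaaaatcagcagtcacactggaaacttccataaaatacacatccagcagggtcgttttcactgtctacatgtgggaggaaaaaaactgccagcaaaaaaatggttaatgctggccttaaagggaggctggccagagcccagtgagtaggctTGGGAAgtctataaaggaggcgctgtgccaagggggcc
Fbln5: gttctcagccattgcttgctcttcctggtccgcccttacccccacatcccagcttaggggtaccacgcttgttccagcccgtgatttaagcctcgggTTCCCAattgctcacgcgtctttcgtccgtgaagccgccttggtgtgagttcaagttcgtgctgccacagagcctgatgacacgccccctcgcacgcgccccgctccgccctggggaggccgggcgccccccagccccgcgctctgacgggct
The letters begin 178 bases before the start in Bmx, 38 in Gper1 and 153 in Fbln5, and are not in this window of Gkn3. Of the 12 genes matched in the table among the 16 looked up, 4 held the letters at any listed start, namely Bmx, Gper1, Fbln5 and Col18a1. Cytl1 and Egfl8, ranked above Fbln5 and Gper1 over capillary cells, did not hold them, nor did the second start of Fbln5. The genes shown thus hold the letters more often than the genes looked up. Of all 32851 promoters of this length 21.6% hold them, a share per start and not per gene. The match is therefore a description of the letters and not a site.

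Compared with capillary cells, members carried more RNA of Eln and Fbln5, of the Notch ligand genes Dll4, Jag1 and Jag2, of the connexin gene Gja4 and of the endothelin-1 gene Edn1, and less of 11 of 20 measured capillary and barrier genes. A gene counted as different when its mean over the 4 CPM values was at least 20, its ratio was at least 1.5 in both libraries and both intervals left out 1. A gene under 20 CPM in 1 class could meet this level only through the other class, and so be counted only 1 way. Of 7239 genes outside the rule, 167 (2.31%) were higher in members and 201 (2.78%) lower. In filtered cells of both classes the counts were 199 (2.88%) and 143 (2.07%) of 6908, with 136 and 104 of the first calls among them. Ratios below are given for the heterozygous and then the homozygous library, each computed within its library.

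Secreted and matrix genes led the higher group. Cytl1, which encodes a small secreted cytokine-like protein, stood at 125 and 81.3 CPM in members against 0.682 and 0.325 CPM in capillary cells, where it rests on 2 and 1 UMIs (ratios 183, 48.9 to 1543, and 250, 42.5 to 10119). Fbln5, encoding fibulin-5 of elastic fibres, stood at 243 and 200 CPM against 10.9 and 13 (22.3, 15.1 to 33.8, and 15.4, 10.6 to 22.8). Eln, encoding elastin, stood at 153 and 143 CPM against 7.16 and 10.4 (21.4, 13.2 to 36.3, and 13.7, 8.93 to 21.5). In both libraries the members stood above capillary cells by ratios of 13.7 or more for these 3 genes. Fbln2 (ratios 7.69 and 5.58), Col18a1 (10.1 and 7.37), Ltbp4, which binds latent TGF-beta (2.34 and 2.06), and Lox, which cross-links elastin and collagen (4.04 and 2.75), were also higher. In all, 8 of 23 measured matrix genes were called higher and 0 lower. Of these, Eln, Fbln5 and Col18a1, under 20 CPM in capillary cells, could be counted only as higher. In filtered cells 7 of 20 were higher, Lox no longer passed the level, and Mgp, encoding matrix Gla protein, went from ratios of 1.95 and 1.83 to 4.61 and 4.49.

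Other genes named by rank have varied roles. Egfl8, an EGF-like domain gene, stood at 167 and 91.2 CPM against 7.16 and 5.20 (23.4, 14.4 to 39.5, and 17.5, 9.75 to 33.2). Gper1, encoding a G protein-coupled oestrogen receptor, stood at 66.9 and 39.7 CPM against 2.73 and 3.90 (24.5 and 10.2). Gja4, encoding the gap junction protein connexin 37, stood at 47.5 and 39.7 CPM against 5.11 and 3.90 (9.30 and 10.2). Gja5, encoding connexin 40, was under the level needed for a call, at 29.9 and 45.6 CPM against 0.682 and 0.325, and was called in filtered cells. Of the connexin genes 1 of 3 measured was thus higher, and 2 of 4 in filtered cells. Gja4, and Gja5 in filtered cells, met the level only through the members, so they could be counted only as higher. Stmn2, encoding the microtubule regulator stathmin-2, stood at 375 and 299 CPM against 49.4 and 36.7 (7.59, 6.11 to 9.44, and 8.15, 6.35 to 10.5). Syt15 (28.8 and 8.45), Atp2a3, a calcium pump (10.0 and 8.14), and Tmem100 (10.2 and 6.96) completed the genes named by rank. Vcam1, the leukocyte adhesion molecule, stood at 278 and 290 CPM against 41.6 and 43.2 (6.69 and 6.70). All 12 genes named by rank were still called in filtered cells.

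**Figure D2:**
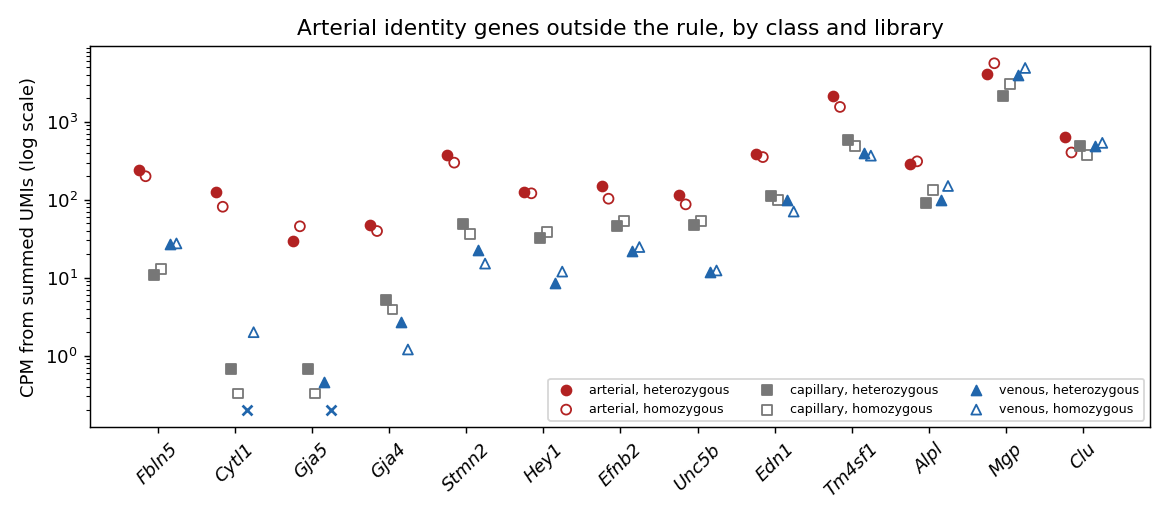
CPM from summed UMIs (y axis, log scale) of the 13 arterial identity genes outside the rule (x axis) in arterial, capillary and venous cells, with filled symbols for the heterozygous and open symbols for the homozygous library and a cross for a value of 0. The arterial symbols of Fbln5, Cytl1, Gja5, Gja4 and Stmn2 stand well above the others, and those of Clu do not.

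Of the arterial identity genes outside the rule, 11 of 12 measured were higher and 0 lower, with a median log2 ratio of 1.78, beside -0.01 for all genes. Clu, encoding clusterin, was the exception (1.28 and 1.07), and in filtered cells it was higher too (2.40 and 2.22), as were all 13. Cytl1, Fbln5 and Gja4, under 20 CPM in capillary cells, could be counted only as higher. Of the Notch genes, 5 of 11 were higher and 0 lower, with a median log2 ratio of 0.36. These were the ligands Dll4 (2.51 and 1.87), Jag1 (3.72 and 3.14) and Jag2 (2.23 and 1.81), the receptor Notch4 (1.81 and 1.5) and the target Hey1 (3.82 and 3.10). The receptor Notch1 did not pass the call (1.34 and 1.22). In filtered cells 6 of 12 were higher, with Nrarp added (2.35 and 3.14). Of 22 transcription factors, 4 were higher and 0 lower, namely Sox17 (1.85 and 1.63), Mecom (1.92 and 1.65), Gata2 (2.02 and 1.68) and Epas1 (1.71 and 1.52), the last of which was not called in filtered cells (1.52 and 1.48).

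The barrier genes went the other way, with 0 of 20 higher and 11 lower, and a median log2 ratio of -0.81. Car4, a carbonic anhydrase of capillary membranes, stood at 128 and 111 CPM against 884 and 825 (0.145, 0.114 to 0.183, and 0.135, 0.101 to 0.175). The transferrin receptor Tfrc stood at 139 and 171 CPM against 522 and 521 (0.266 and 0.327). Lower levels were also measured for the amino acid carriers Slc7a5 (0.209 and 0.332) and Slc7a1 (0.406 and 0.408), the monocarboxylate carrier Slc16a1 (0.342 and 0.323), the organic anion carrier Slc22a8 (0.371 and 0.313), the glutamate carrier Slc1a1 (0.275 and 0.466) and the lipid carrier Mfsd2a (0.562 and 0.522). Lrp8, Slc16a4 and Rgcc completed the 11. The carriers did not all follow: the glucose transporter Slc2a1 stood at 1272 and 1041 CPM against 922 and 854 (1.38 and 1.22), and the efflux pump Abcb1a at 827 and 869 CPM against 884 and 959 (0.936 and 0.906). In filtered cells 12 were lower, with Slco1a4 added (0.609 and 0.617).

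**Figure D3:**
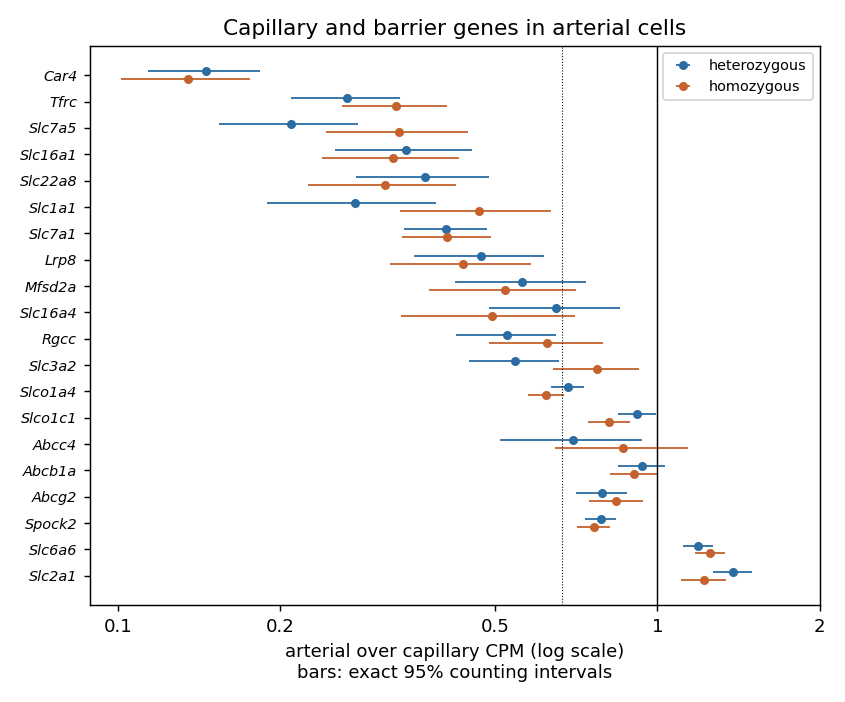
Ratio of arterial to capillary CPM (x axis, log scale) for the 20 barrier genes (y axis), with exact conditional binomial 95% intervals, in the heterozygous and homozygous library; the dotted line marks a ratio of 1 over 1.5. Car4, Tfrc and Slc7a5 lie furthest below 1, and Slc2a1 lies above 1 in both libraries.

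Other lists split by role. The vasoactive genes Edn1, encoding the vasoconstrictor endothelin-1 (3.50 and 3.56), Ace, encoding angiotensin-converting enzyme (2.16 and 2.58), Ptgis, encoding prostacyclin synthase (1.97 and 2.54), and Ddah2 (1.87 and 1.76) were higher, 4 of 15 with 0 lower. In filtered cells 6 of 17 were higher, without Ddah2 (1.89 and 1.5) and with Ptgs2 (4.12 and 4.95), P2ry1 (25.7 and 3.50) and Trpv4 (2.46 and 4.32). Among 13 VEGF and PDGF genes, Pdgfa, a ligand for mural cells, was higher (3.09 and 2.69), and Kdr, the main VEGF receptor, lower (0.526 and 0.452). Of 17 Wnt genes, Sox17 and Reck (2.10 and 1.53) were higher, and the Wnt targets Apcdd1 (0.335 and 0.340), Notum (0.456 and 0.456) and Nkd1 (0.534 and 0.497) lower. The inhibitory Smad gene Smad6 (2.58 and 3.91), glutamine synthetase Glul (2.01 and 1.90), and the polyamine genes Amd1 (2.60 and 2.65) and Azin1 (2.79 and 3.16) were higher. So were the MHC class I genes H2-K1 (1.83 and 1.75) and H2-D1 (1.73 and 1.75), 2 of 12 measured. No gene of the 22 interferon and 16 glycolysis genes measured was called either way. In filtered cells 1 of 23 interferon genes, Ifitm3 (1.84 and 1.60), and 1 of 16 glycolysis genes, Pfkp (2.35 and 2.93), were higher.

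Not all of the lower genes belong to endothelial cells. Hbb-bt, a beta-globin gene, stood at 107 and 79.3 CPM against 917 and 1336 CPM in capillary cells. Ly86 (10.6 and 15.9 CPM against 60.7 and 79.3), Fcrls (12.3 and 13.9 against 58.3 and 57.2) and Ccl12 (7.04 and 9.92 against 47.4 and 37.1) are macrophage or microglial genes, and neither Fcrls nor Ccl12 was called in filtered cells. They moved with the macrophage marker sum given above, and its part in these differences was not tested. The 4 remaining genes named by rank were Car4, Fam13a (0.191 and 0.186), Lyrm1 (0.243 and 0.233) and the matrix gene Hmcn1, encoding hemicentin-1 (0.229 and 0.285), and these 4 were called lower in filtered cells as well.

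Compared with venous cells, 300 of 7152 genes (4.19%) were higher in members and 161 (2.25%) lower. Venous cells with an endothelial share under 0.5% numbered 86 and 107 and held 46.0% and 53.1% of the venous UMIs. In filtered cells the counts were 243 (3.54%) and 166 (2.42%) of 6864, with 168 and 73 of the first calls among them. Gja4 stood at 47.5 and 39.7 CPM in members against 2.71 and 1.20 in venous cells (17.5, 7.09 to 51.9, and 33.2, 9.84 to 174). Stmn2 had ratios of 16.6 and 19.8, Egfl8 19.5 and 16.3, Fbln2 29.0 and 19.2, and Alox12, encoding an arachidonate lipoxygenase, 30.4 and 20.7. Cytl1 was at 0 in heterozygous venous cells, so it was at least 92.1-fold higher in members there, against a floor of 3 counts over the class. The arterial identity genes were higher in 10 of 12 measured and lower in 0 (13 of 13 in filtered cells), and 6 of 11 Notch genes were higher (6 of 13). Gja4, under 20 CPM in venous cells, could be counted only as higher. Hey1 reached ratios of 14.6 and 10.1, and Notch1 joined the called genes (2.38 and 2.27).

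Venous identity genes outside the rule were lower in 6 of 9 measured and higher in 0, and in filtered cells all 9 were lower. Il1r1, encoding an interleukin-1 receptor, stood at 7.04 and 11.9 CPM against 101 and 118 (0.0695 and 0.101). Nrp2, a co-receptor of semaphorins and VEGF-C, stood at 28.2 and 65.4 CPM against 247 and 204 (0.114 and 0.320). Lrg1 stood at 7.04 CPM in heterozygous and 0 in homozygous members, at least 6.90-fold lower than venous cells in the latter. Il1r1 and Lrg1, under 20 CPM in members, could be counted only as lower. Ctsc (0.184 and 0.351) and Tmem252 (0.318 and 0.379) were lower as well. By rank, Adgrg6 (0.0548, 0.00658 to 0.202, and 0.0976, 0.0199 to 0.291) was also lower. The chemokine Ccl19, with 1 UMI per library in members, had ratios of 0.0469 (0.00117 to 0.269) and 0.0478 (0.00120 to 0.273). Fxyd6, also with 1 UMI per library, had 0.0342 (8.57e-04 to 0.194) and 0.0524 (0.00131 to 0.299). Cenpf, a mitosis gene, was at 0 in heterozygous members, at least 3.51-fold lower than venous cells, and had 1 UMI in homozygous members (0.0300, 7.54e-04 to 0.169), and it was not called in filtered cells. Some genes set members apart from venous and capillary cells to different degrees. The chemokine Cxcl12 stood at 2189 and 2410 CPM in members, between 3586 and 3276 CPM in capillary and 903 and 906 CPM in venous cells. Vcam1 stood at 278 and 290 CPM against 346 and 326 CPM in venous cells (0.803 and 0.889), and in filtered cells it was called lower than in venous cells (0.617 and 0.584).

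Members differed among themselves along the marker sum, which is description, as the rule reads that sum. With filtered members divided by a sum of 2, of 3 to 5 and of 6 or more (35, 46 and 58 heterozygous and 46, 30 and 39 homozygous cells), the 13 arterial genes outside the rule summed to 4266, 6217 and 12320 CPM in the heterozygous library. In the homozygous library they summed to 3244, 6796 and 13944 CPM. Fbln5 stood at 105, 84.5 and 378 CPM and at 43.2, 346 and 438 CPM. Vcam1 stood at 47.5, 310 and 417 CPM and at 28.8, 482 and 631 CPM. Gja5 was absent from cells with a sum of 2, with 0, 6 and 11 UMIs in the heterozygous and 0, 4 and 16 in the homozygous library. Median depth was close between divisions (2343, 2538.5 and 2899.5 UMIs, and 2336, 2130 and 2124).

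The carriers Slc7a5 and Tfrc were lower in the divisions with a higher sum in both libraries. Slc7a5 stood at 257, 106 and 29.1 CPM in heterozygous and 216, 124 and 42.1 CPM in homozygous members. Tfrc stood at 238, 218 and 87.2 CPM and at 460, 61.8 and 42.1 CPM. Slc16a1 and Mfsd2a did not fall at each step in both libraries. Slc16a1 stood at 143, 113 and 53.3 CPM and at 79.1, 111 and 67.3 CPM. Mfsd2a stood at 66.5, 162 and 121 CPM and at 230, 124 and 16.8 CPM. The summed barrier genes, which also hold abundant genes outside this pattern, went from 13948 to 13835 and 12548 CPM in the heterozygous library and from 18526 to 14544 and 10292 CPM in the homozygous library. Venous identity genes did not fall with the marker sum, at 485, 662 and 965 CPM and at 547, 1199 and 1481 CPM.

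**Figure D4:**
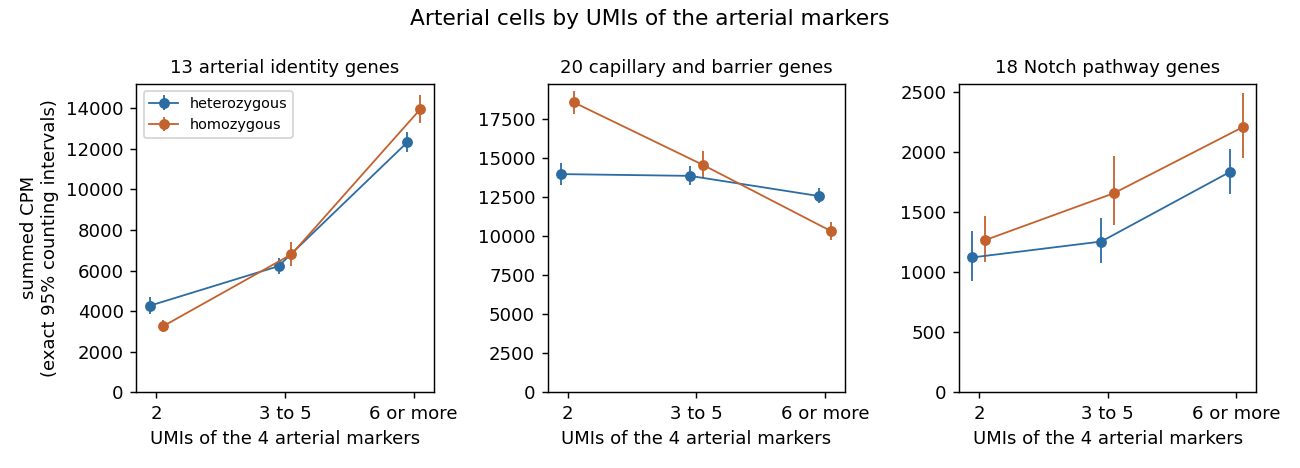
Summed CPM of gene lists in filtered members with a marker sum of 2, of 3 to 5 and of 6 or more, per library, with exact Poisson 95% intervals. The 13 arterial genes outside the rule are higher at each step in both libraries, from 4266 to 12320 CPM and from 3244 to 13944 CPM, the Notch genes follow them, and the barrier genes are lowest at a sum of 6 or more.

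Between the genotypes, single cells held a large part of the UMIs of several of the most different genes in members. A gene counted as different with 30 or more UMIs in the libraries together, a 2-fold or larger ratio either way and an interval without 1. Of 5911 genes, 206 (3.49%) were higher in homozygous members and 89 (1.51%) lower. In filtered members the counts were 68 (1.43%) and 71 (1.49%) of 4769, and 33 and 24 of the first calls were among them. In the library where the gene was higher, 1 cell held over 50% of the UMIs for 18 of the 206 and 13 of the 89, and 20% or less for 96 and 48. Il34 itself had 0 UMIs in heterozygous members, which allows up to 5.28 CPM, and 2 in homozygous members, so these cells cannot check the genotype labels.

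Of the 8 genes ranked highest in homozygous members, Pomc, a hormone precursor, had 19 and 3507 UMIs, and 1 cell held 99.4% of the latter. In filtered members Pomc had 19 UMIs in either library. Myoc (3 and 103 UMIs), Resp18 (0 and 38), Usp29 (1 and 30) and Ccl7 (2 and 34) each had at least 88.2% of their homozygous UMIs in 1 cell. Shisa3 (2 and 28), Thbs1 (22 and 122) and Ccn3 had 57.1%, 47.5% and 31.4% in 1 cell, and Ccn3 went from 103 and 417 UMIs to 68 and 52 in filtered members, a ratio of 1.02 (0.699 to 1.49). Among the lowest, Tubb4a (46 and 3 UMIs) and the oligodendrocyte gene Mag (32 and 2) had 89.1% and 96.9% of their heterozygous UMIs in 1 cell. Trf (141 and 20 UMIs), high in oligodendrocytes, had 51.1% in 1 cell, and Col9a3 (52 and 8) had 36.5%. Enpp2, a gene high in choroid plexus, stood at 2047 and 641 CPM (0.313, 0.276 to 0.354), with 37.2% and 39.9% of its UMIs in 1 cell of each library. Ttr, which moves with the choroid plexus sum given above, had a ratio of 0.369, and 0.213 in filtered members, where 1 heterozygous cell held 62.1% of its UMIs. The Ttr ratio was also below 1 in capillary (0.430) and venous cells (0.766). In macrophage cells Ttr stood at 29443 CPM in the heterozygous and 19546 CPM in the homozygous library. Enpp2 had a ratio of 0.507 in capillary and 1.02 in venous cells. At a mitochondrial limit of 5% Ttr, Enpp2 and Col9a3 turned to higher in homozygous members (log2 ratios of 1.84, 0.93 and 0.69). Enpp2 also turned without cells holding other-type markers (0.46), and Ttr without Gkn3 in the rule (0.078). Septin4, with 56 and 9 UMIs, was still called in filtered members (31 and 8 UMIs, 0.345, 0.137 to 0.768). The part of other cells' RNA in these differences was not tested.

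Among filtered calls spread over more cells, Shank3, a scaffold gene, had 20 and 42 UMIs (2.81, 1.61 to 5.05), and Sema3f, a secreted semaphorin, 9 and 24 (3.57, 1.60 to 8.73). Cpne8 had 37 and 7 UMIs (0.253, 0.0953 to 0.576) and Pcbd2 34 and 7 (0.276, 0.103 to 0.632). These 4 were chosen after their values were seen. Csf1, which encodes the other ligand of CSF1R, had 12 and 31 UMIs in all members (2.91, 1.45 to 6.22) and 7 and 21 in filtered members (4.02, 1.64 to 11.2), where it was under the UMI minimum for a call. In capillary cells its ratio was 1.24 (0.948 to 1.63). Hes1, a Notch target, was at 88.0 and 186 CPM (2.12, 1.49 to 3.05, and filtered 1.78, 1.21 to 2.63). It was also higher in homozygous capillary (1.39, 1.21 to 1.61) and venous cells (1.39, 1.18 to 1.65). The Notch list had 7 of 11 measured ratios below 1 in members, with a median ratio of 0.968. Of its intervals 3 lay above 1 and 0 below, where 7.34% and 5.65% of all genes did.

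The markers of the rule also differed between the libraries, and as the rule reads them this is description. Members with a marker sum of 6 or more numbered 63 of 147 heterozygous and 40 of 130 homozygous cells, and the part of this in the differences below was not tested. Gkn3 had a ratio of 0.654 (0.579 to 0.737) and 0.817 (0.722 to 0.925) in filtered members. Vegfc had 0.507 (0.375 to 0.680) and 0.528 (0.378 to 0.728), with 151 and 68 UMIs in all members. Bmx had 1.25 (0.947 to 1.65) and Sema3g 1.12 (0.903 to 1.39), whose intervals hold 1. Of the 13 arterial genes outside the rule, 5 had intervals below 1 and 1 above, with a median ratio of 0.825. Over all 5911 genes 5.65% of intervals lay below 1 and 7.34% above, with a median ratio of 1.02. Efnb2 (0.689), Cytl1 (0.651), Stmn2 (0.799), Tm4sf1 (0.719) and Clu (0.640) were the 5, and Mgp (1.36) was the 1. The direction turned under single alternatives for Stmn2 (a log2 ratio of 0.27 with cells thinned), Efnb2 (0.11 with equal weight per cell), Cytl1 (0.32) and Clu (0.015, both without cells holding other-type markers). In filtered members Tm4sf1 (0.822, 0.747 to 0.903) and Clu (0.760, 0.601 to 0.957) alone kept intervals below 1, the list's median ratio was 0.956, and Mgp was at 0.956, beside 4.38% below and 5.33% above over 4769 genes.

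Of 22 measured interferon-response genes, which are switched on by type I interferon, 10 had intervals below 1 and 0 above, with a median ratio of 0.756. Over all genes in members 5.65% of intervals lay below 1 and 7.34% above. Bst2 stood at 310 and 177 CPM (0.570, 0.437 to 0.739), Isg15 at 290 and 208 CPM (0.717, 0.556 to 0.921) and Ifit3 at 84.5 and 37.7 CPM (0.446, 0.248 to 0.773). Ifit3 was the one of these to reach a 2-fold difference. No single cell held over 22.9% of the UMIs of these 3 genes. In filtered members 6 of 22 intervals lay below 1, where 4.38% of genes did, with a median ratio of 0.807. The intervals of Isg15 (0.617 to 1.04) and Ifit1 (0.504 to 1.04) held 1 there. With cells thinned to 1500 UMIs the median over these genes came to -0.10 on the log2 scale, and Ifit1, at 0.34, took the other direction. The list had 13 of 23 intervals below 1 in capillary cells (median ratio 0.899), where 6.64% of genes did. In venous cells 11 of 23 lay above 1 (median ratio 1.19), where 10.9% of genes did. With cells of low endothelial share left out, the venous ratios were 0.994 for Isg15, 0.986 for Ifit1, 1.13 for Bst2 and 1.59 for Rsad2.

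**Figure D5:**
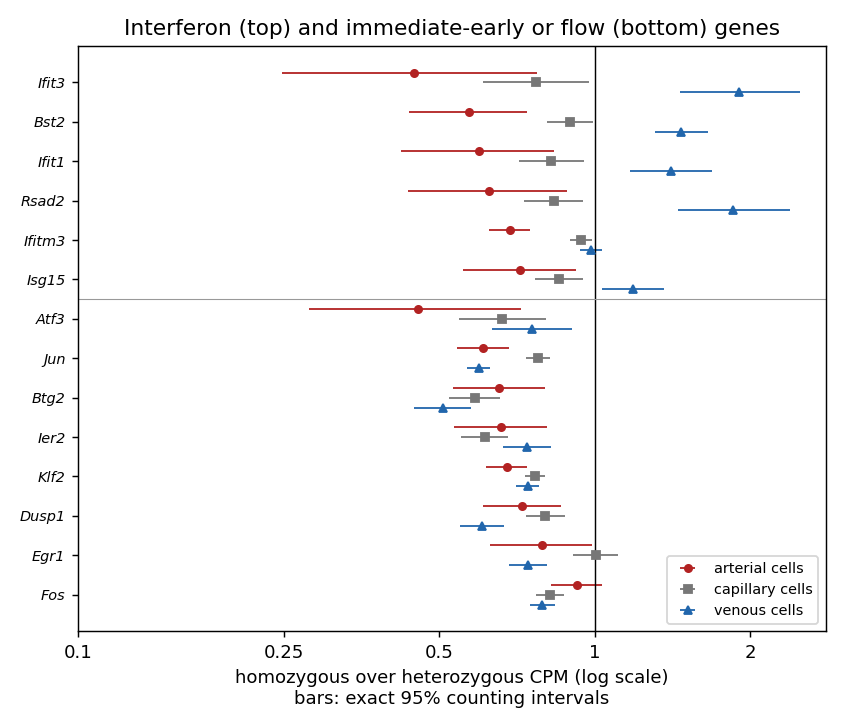
Ratio of homozygous to heterozygous CPM (x axis, log scale) with exact conditional binomial 95% intervals, for interferon genes (top) and immediate-early or flow genes (bottom) in arterial, capillary and venous cells. All 6 interferon genes shown lie below 1 in arterial and capillary cells, and 5 of them lie above 1 in venous cells.

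Immediate-early and stress genes, which respond within minutes to handling and to flow, had 9 of 23 intervals below 1 and 2 above, with a median ratio of 0.889, where 5.65% of all genes lay below 1 and 7.34% above. Jun stood at 1498 and 910 CPM (0.608, 0.541 to 0.682), and Klf2, a flow-responsive factor, at 2182 and 1474 CPM (0.675, 0.616 to 0.740). Ier2 (0.658), Dusp1 (0.723), Atf3 (0.454) and Btg2 (0.653) were lower as well. Junb was higher over all members (1.33, 1.12 to 1.59), with 28.5% of its homozygous UMIs in 1 cell, and at 1.02 (0.820 to 1.26) in filtered members. In filtered members 7 of 23 lay below 1 and 1 above, with a median ratio of 0.861, where 4.38% and 5.33% of genes did. In capillary cells 12 of 23 lay below 1 (median ratio 0.900), where 6.64% of genes did, and in venous cells 18 of 23 (median ratio 0.743), where 6.13% of genes did. Over all genes the median log2 ratio was 0.087 in capillary and 0.058 in venous cells. Klf2 was below 1 in capillary (0.766, 0.733 to 0.801) and venous cells (0.741, 0.703 to 0.781) too.

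Several single genes were higher in homozygous members. Ldha, the lactate dehydrogenase A gene, stood at 188 and 303 CPM (1.61, 1.25 to 2.08; filtered 1.59), Cavin1, a caveolar coat gene, at 260 and 397 CPM (1.52, 1.23 to 1.90; filtered 1.60) and Thbd, encoding thrombomodulin, at 253 and 401 CPM (1.58, 1.27 to 1.97; filtered 1.32). Epha4 (1.71), Smad6 (1.61) and Azin1 (1.40) had intervals above 1, and Nrp1, a VEGF co-receptor (0.771, 0.613 to 0.967), and Tgfb2 (0.705, 0.555 to 0.893) below 1. None of these 8 reached 2-fold. The caveolae list had 1 of 8 measured intervals above 1 and 0 below, with a median ratio of 0.898. The glycolysis list had 3 of 16 above and 1 below, with a median ratio of 0.972. Over all genes 7.34% of intervals lay above 1 and 5.65% below. Of 7 measured venous identity genes 3 had intervals above 1, where 7.34% of all genes did. Their median log2 ratio of 0.56 became -0.28 at a mitochondrial limit of 5%. Nrp2 had 16 and 33 UMIs (2.32, 1.24 to 4.52) and Ctsc 19 and 31 (1.84, 1.01 to 3.44).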

How the data were processed

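Messenger RNA was measured in single cells of 2 libraries, 1 per genotype, by the 10x Genomics 3′ v3.1 kit. The authors' deposited matrices give raw counts of UMIs for each gene in each barcode. The file headers name Cell Ranger 5.0.0, and the submitters' processing notes name GRCm38.p6 (mm10). The heterozygous matrix held 17168 barcodes and 87394167 UMIs and the homozygous 18858 barcodes and 95505407 UMIs, with at least 500 UMIs per barcode, so the authors' filter of barcodes precedes all values. Of 25827 features, 25651 were in GENCODE vM21, which gave positions.

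Members and gene lists were chosen with earlier results of these data known. Cells were classed by summed UMIs of fixed genes, without clustering. Scrublet in scanpy 1.11.5 called 1106 (6.44%) and 1218 (6.46%) barcodes as doublets, which were kept (14 and 9 members) and left out in an alternative. UMIs were summed per class and library and scaled to CPM. Ratios carry exact conditional binomial, levels exact Poisson and shares exact Clopper-Pearson 95% intervals. Over a value of 0, folds use a floor of 3 counts. Genes were named by rank: against capillary cells 12 higher and 8 lower by the smaller of the libraries' log2 ratios, against venous cells 5 and 5, between genotypes 8 and 8 by the interval bound nearest 1, and otherwise as members of the lists. Some genes that the rule names are not reported here. With 1 library per genotype no p-value is given. Cells of 1 library are not replicates. Alternatives changed depth and mitochondrial limits, doublets, the arterial rule, thinning to 1500 UMIs, cell weights and cells of mixed type. The code was tested on simulated data. Python 3.11.15, numpy 2.4.6, scipy 1.17.1, pandas 2.3.3 and matplotlib 3.10.9 were used.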

Additional observations from a re-analysis of the deposited data

Results flagged for a closer look

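Some genes moved one way between genotypes in members and the other way in capillary or venous cells, with intervals that left out 1 in both. With 1 library per genotype these differences were not tested. In capillary cells the homozygous over heterozygous ratio was 7.95 for Tubb4a (0.0735 in members), 1.40 for Trf (0.160), 6.13 for Mag (0.0704) and 1.54 for Septin4 (0.181). In members, 1 heterozygous cell held 89.1% of the Tubb4a and 96.9% of the Mag UMIs. With cells of low endothelial share left out of both classes, Mag was at 1.38 in capillary cells and 2.68 in members, so the directions were no longer opposite. Septin4 was then at 1.12 and 0.345, Trf at 1.58 and 0.482 and Tubb4a at 4.10 and 0.535. Capillary ratios were 0.656 for Junb (1.33 in members), 0.862 for Ldha (1.61), 0.914 for Cxcl12 (1.10) and 0.679 for Lyz2 (3.55). With those cells left out they were 0.712 (1.02), 0.887 (1.59), 0.965 (1.26) and 0.922 (5.22).

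In venous cells the ratio was 1.19 for Isg15 (0.717 in members), 1.40 for Ifit1 (0.596), 1.90 for Ifit3 (0.446), 1.86 for Rsad2 (0.623) and 1.47 for Bst2 (0.570). With cells of low endothelial share left out of both classes, the venous ratios became 0.994, 0.986, 1.18, 1.59 and 1.13 and those in members 0.802, 0.729, 0.446, 0.684 and 0.613. Venous ratios were 0.579 for Junb (1.33 in members), 0.827 for Nrp2 (2.32) and 1.11 for Clu (0.640). With cells of low endothelial share left out they were 0.428 (1.02), 0.972 (2.59) and 0.848 (0.760), so Clu lay below 1 in both classes.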

How the results depend on the processing

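No paired analysis was possible because each genotype has 1 library. Leaving out every cell with 3 or more UMIs of other-type markers left no members and gave no value. Cells of low endothelial share, cells with 3 or more UMIs of other-type markers except Ttr, Enpp2 and haemoglobin genes, and the deepest cell were left out as alternatives. These were chosen after seeing the data. The alternative called without other-type markers below is the one that passes over Ttr, Enpp2 and haemoglobin genes, and it kept 55 heterozygous and 56 homozygous members. Where a value moved, the cause was not tested.

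The share of members among endothelial cells was 10.4% in the heterozygous library at 2000 UMIs. It was 5.92% and 4.30% with a marker sum of at least 3, 6.5% and 5.55% with a sum at least 3 times the venous sum, 5.17% and 5.17% without Gkn3, 5.86% and 4.08% without Sema3g, 6.63% (heterozygous) without other-type markers, and 5.03% (homozygous) when thinned.

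Genes lower than in capillary cells numbered 82 when thinned, 130 without Gkn3 and 110 without other-type markers. Genes higher than in venous cells numbered 179 at a mitochondrial limit of 5%, 165 when thinned and 189 without other-type markers, and genes lower numbered 259 at 3 times the venous sum and 105 without other-type markers. Genes higher in homozygous members numbered 70 at the 5% limit, 105 at 3 times the venous sum, 31 when thinned, 128 without Gkn3, 110 without Vegfc, 68 in filtered members and 29 without other-type markers. Genes lower numbered 31 when thinned and 52 without other-type markers.

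The median log2 ratio between genotypes of the arterial list was -0.48 at 2000 UMIs, -0.026 at 3 times the venous sum, -0.057 with equal weight per cell, -0.075 without Bmx, -0.065 in filtered members and -0.0058 without other-type markers. For immediate-early genes it was -0.58 thinned, -0.56 with equal weights and -1.37 without other-type markers. For interferon genes it was -0.10 thinned, -0.62 without Gkn3 and -0.91 without Sema3g. For venous identity genes it was -0.28 at the 5% limit and 0.19 at 3 times the venous sum.

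Log2 ratios between genotypes that changed sign were as follows. With a marker sum of at least 3 they were 0.043 for Btg2, -0.31 for Cxcl12, 0.40 for Egr1 and 0.45 for Mag. At the 5% mitochondrial limit they were 0.69 for Col9a3, 0.93 for Enpp2, -0.40 for Mgp and 1.84 for Ttr. Thinned, they were -0.080 for Cxcl12, 0.34 for Ifit1, -0.59 for Junb, -0.47 for Mgp, 0.27 for Stmn2, -1.53 for Thbs1 and 0.058 for Trf. With equal weights they were 0.11 for Efnb2 and -0.29 for Junb. Without Gkn3 they were -0.043 for Junb and 0.078 for Ttr, and without Sema3g -0.27 for Cxcl12 and 0.013 for Egr1. Without Vegfc they were 1.22 for Mag, -0.022 for Mgp and 0.22 for Tubb4a. In filtered members they were 1.42 for Mag and -0.065 for Mgp. Without other-type markers they were 0.015 for Clu, 0.32 for Cytl1, 0.46 for Enpp2, -1.36 for Junb and 0.32 for Mag. Against capillary cells Clu was at -0.21 at 2000 UMIs, and against venous cells Rgcc at -0.048 without Sema3g.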

Other observations

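The Y-linked gene Ddx3y had 93 UMIs in 65 heterozygous members and 92 UMIs in 59 homozygous members.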
